A study of Mus musculus with 6 samples.

Results

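P2X receptors are encoded by 7 mouse genes, P2rx1 to P2rx7, and their messenger RNA was followed in thymocytes with and without the histone deacetylase Hdac3. The genes were taken by symbol: 8 probe sets carried exactly one of the 7 symbols, out of 23410 probe sets paired with any gene. All 7 genes were measured, among 19938 genes in all, and for P2rx3, the gene with more than 1 probe set, the brighter over the 6 arrays stood for the gene. RNA came from double-positive (DP) thymocytes, the stage at which developing T cells carry both CD4 and CD8, of C57BL/6 mice aged 3 weeks. Wild-type (WT) cells were hybridised on 3 arrays and Hdac3 knockout (KO) cells on 3 arrays, with no treatment of either. The study's design text names the strain after Lck, a T cell kinase gene, and Hdac3, while neither the form of the Lck promoter nor the deleted part of Hdac3 is given there or in the labels. RNA of 2 mice of each genotype was pooled, so mice cannot be told apart. The p-values measure the spread between arrays, part or all of which may be technical. Values are log2 probe set signals, and a difference is always KO minus WT.

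P2X receptors are trimeric cation channels of the cell membrane that open when extracellular ATP binds, letting sodium and calcium in and potassium out. T cells release ATP when stimulated, and P2X channels on the same or neighbouring cells feed its signal into calcium entry. P2X7 needs more ATP than the other subtypes, and in T cells its opening is known for shedding of surface proteins, exposure of phosphatidylserine and cell death. On mouse T cells it can also be opened by ADP-ribosylation from extracellular NAD. C57BL/6 mice are known to carry a P2X7 form with a changed residue in its cytoplasmic tail that responds less to ATP.

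P2rx7 was the P2X gene that rose in KO, so the sequence before its starts is shown. Promoter windows from RefSeq (GRCm38.p6) were used for 4 of the 7 genes, and 2 of them belong to P2rx7, both on the plus strand of chromosome 5. The bases shown are the 250 before each start, 5′ to 3′. Capitals mark every match, on either strand, to 6 motifs: the nuclear receptor half-site AGGTCA, the RUNX core TGTGGT, the E-box CAGCTG, the ETS core GGAAGT, the GC box GGGCGG and the TATA box TATAAA. The first window is chr5:122643677-122643926 and the second, downstream of it, is chr5:122650133-122650382.
P2rx7 start 1: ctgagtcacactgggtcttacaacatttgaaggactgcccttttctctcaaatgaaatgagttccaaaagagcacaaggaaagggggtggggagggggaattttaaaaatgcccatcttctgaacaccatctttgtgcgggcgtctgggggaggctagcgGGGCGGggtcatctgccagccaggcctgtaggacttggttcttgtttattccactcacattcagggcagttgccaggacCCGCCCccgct
P2rx7 start 2: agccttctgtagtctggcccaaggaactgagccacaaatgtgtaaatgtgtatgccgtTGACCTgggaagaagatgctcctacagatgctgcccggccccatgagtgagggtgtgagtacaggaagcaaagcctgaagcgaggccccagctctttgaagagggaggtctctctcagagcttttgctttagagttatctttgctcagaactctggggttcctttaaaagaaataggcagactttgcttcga
The first window held 2 GC boxes, 1 on each strand, a motif found in 10756, or 32.7%, of the 32851 promoter windows of this length. The second held 1 nuclear receptor half-site, on the opposite strand and printed as TGACCT, a motif found in 4607 of the windows. The other motifs were not among the letters of these windows. The P2rx4 window also held 1 nuclear receptor half-site on the opposite strand, and the P2rx6 window held 1 GC box and 1 TATA box. P2rx4 differed by -0.23 and P2rx6 by 0.16, and neither passed at a limma adjusted p under 0.05. The P2rx1 window held none of the 6 motifs. The motifs of the P2rx7 windows were thus also present at P2X genes that did not pass. For P2rx7, G and C made up 53.6% of the first window and 50.0% of the second, against a median of 52.4% over all windows. The array gives 1 value for P2rx7 and does not separate transcripts from the 2 starts. The positions of its probes were not used here.

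P2rx7, the ATP receptor of the cell death and shedding responses, rose in KO. Arrays 1 to 3 of each genotype gave log2 signals of 5.94, 5.93 and 6.04 in WT cells and of 6.74, 6.63 and 6.76 in KO cells. Every KO array lay above every WT array, and the gap between the groups, 0.58, was several times the spread within either group. Group means were 5.97 ± 0.06 for WT (SD, n = 3) and 6.71 ± 0.07 for KO (SD, n = 3). They differed by 0.74 (SE 0.09, 95% interval 0.53 to 0.94; limma, Benjamini-Hochberg adjusted p = 0.00277 over all 23410 probe sets). On the linear scale KO signal was 1.67-fold the WT signal (95% interval 1.45 to 1.92). By size the rise was number 66 among 409 probe sets that passed upward. It passed in all 16 alternative treatments of the data, with differences between 0.63 and 0.79 and limma adjusted p between 0.0012 and 0.0175. Because the rise of this gene was already known when the family was chosen, it is reported as a measurement and not as a fresh test of it.

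**Figure D1:**
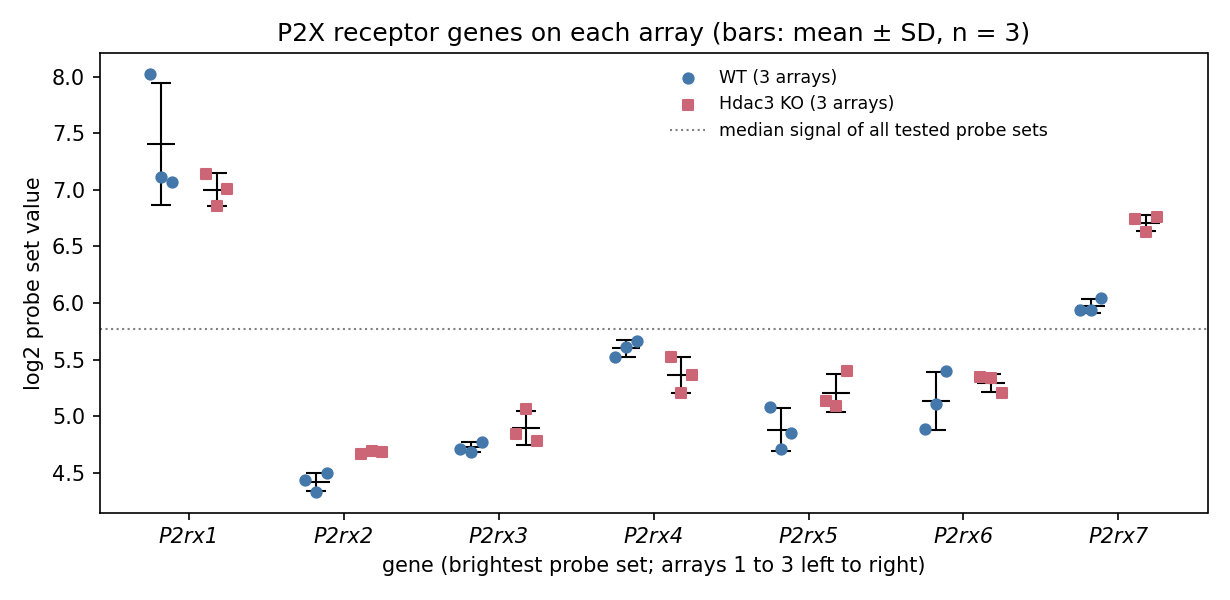
Log2 probe set value (y axis) of each P2X gene on each of the 6 arrays, WT as circles and KO as squares, with the mean ± SD (n = 3). P2rx7 is the gene whose groups lie far apart (means 5.97 and 6.71), and P2rx1 has 1 WT array, at 8.02, above its other arrays. The dotted line is the median signal of tested probe sets, 5.77.

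P2rx7 was the 1 of the 7 genes that passed the test, and 6 did not pass. Over all probe sets 1.75% passed with KO higher and 5.79% in either direction. The median difference of the 7 genes was 0.17, beside 0.02 over all genes, but it was 0.05 after quantile normalization, which gives all arrays the same distribution of values. Groups did not overlap, with KO higher, for 4 of the 7 genes (P2rx2, P2rx3, P2rx5 and P2rx7), where 13.5% of all probe sets did the same. After quantile normalization that held for 2 of the 7, P2rx2 and P2rx7, against 11.0% of probe sets.

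P2rx4 is the subtype that works at the surface and in endolysosomes of immune cells, and in T cells it is known for calcium entry after stimulation. Its signals were 5.52, 5.61 and 5.67 in WT and 5.52, 5.21 and 5.37 in KO. The groups met at WT array 1 and KO array 1, with the other KO arrays below all WT arrays. The difference was -0.23 (SE 0.11, 95% interval -0.47 to 0.002; limma adjusted p = 0.202), which did not pass. After quantile normalization the signals were 5.61, 5.66 and 5.66 in WT and 5.51, 5.09 and 5.32 in KO, so that KO was lower without overlap, as for 13.6% of probe sets, with a difference of -0.34 and a limma adjusted p of 0.129.

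P2rx1 encodes a fast desensitising receptor best known from platelets and smooth muscle, and it also carries the older names RP-2 and Pdcd3, the latter a programmed cell death symbol. Its signals were 8.02, 7.11 and 7.07 in WT and 7.14, 6.86 and 7.01 in KO. WT array 1 stood 0.88 above the next array, KO array 1, and the remaining WT arrays lay among the KO arrays. The difference of -0.40 (SE 0.22, 95% interval -0.90 to 0.10; limma adjusted p = 0.289) did not pass, and without WT array 1 it was -0.09 (SE 0.12, limma adjusted p = 0.725). The SD over the WT arrays was 0.54, against 0.14 over the KO arrays. The 4 measured platelet markers had a mean signal of 4.83 on WT array 1 and of 4.79 and 4.97 on the other WT arrays. The 7 measured B cell markers averaged 4.76 on that array, against 4.80 to 4.82 on the other WT arrays. The part of other cell types in the P2rx1 value of WT array 1 was not tested.

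P2rx5, a receptor of lymphoid, muscle and bone cells, had signals of 5.08, 4.71 and 4.85 in WT and 5.13, 5.09 and 5.40 in KO. All KO arrays were above the WT arrays, but KO array 2 exceeded WT array 1 by only 0.01. The difference of 0.32 (SE 0.13, 95% interval 0.04 to 0.60; limma adjusted p = 0.148) did not pass. With quantile normalization it was 0.21 and the groups overlapped.

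P2rx2 and P2rx3 encode the subunits of the sensory neuron receptors, which can join in 1 channel. P2rx2 signals were 4.43, 4.33 and 4.49 in WT and 4.67, 4.69 and 4.68 in KO. The KO arrays lay close together and above all WT arrays, and the difference was 0.26 (SE 0.09, 95% interval 0.06 to 0.46; limma adjusted p = 0.110). It did not pass, and was 0.16 after quantile normalization (limma adjusted p = 0.331).

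The brighter probe set of P2rx3 read 4.71, 4.69 and 4.77 in WT and 4.84, 5.07 and 4.78 in KO. KO array 3 exceeded WT array 3 by only 0.01, so the lack of overlap rests on a very small gap, and the difference of 0.17 (SE 0.10, limma adjusted p = 0.318) did not pass. The other P2rx3 probe set read 5.01, 4.81 and 4.56 in WT and 4.43, 4.63 and 4.72 in KO, with overlapping groups and a difference of the opposite sign, -0.20 (SE 0.13, limma adjusted p = 0.368). The probe sets of this gene therefore gave no common direction.

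P2rx6, whose subunit is thought to work mainly in channels shared with other subtypes, read 4.89, 5.11 and 5.40 in WT and 5.34, 5.34 and 5.20 in KO. The KO values fell within the range of WT, and the difference was 0.16 (SE 0.13, 95% interval -0.13 to 0.45; limma adjusted p = 0.462). Mean signals of P2rx2 to P2rx6 were all below 5.77, the median of tested probe sets. Detection calls were not used here, so whether these 5 genes were expressed in these cells is not settled by their signals. For none of these 5 genes, nor for P2rx1, does the missed threshold show that the genotypes were alike.

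**Figure D2:**
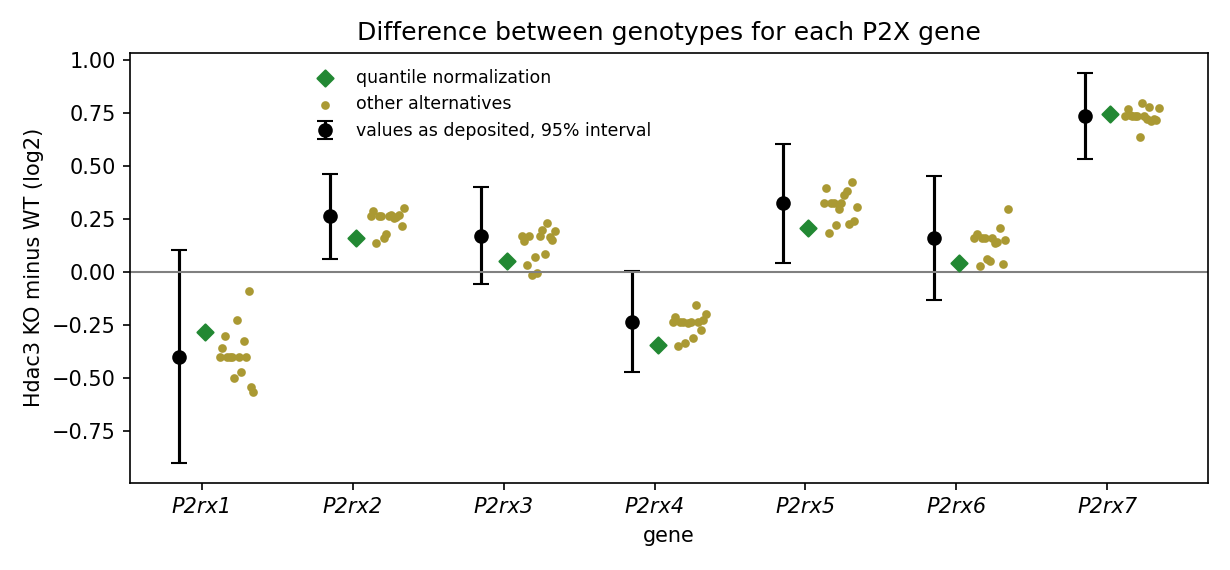
Difference between KO and WT (y axis, log2) for each P2X gene: black circles with 95% intervals are values as deposited, green diamonds follow quantile normalization and small points are the other alternatives. P2rx7 stays between 0.63 and 0.79, while the points of P2rx3 reach both sides of 0 and those of P2rx1 run from -0.57 to -0.09.

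P2rx7 and P2rx4 lie next to each other on chromosome 5, so the genes around them were compared. The 3 protein-coding genes on either side of P2rx7 in RefSeq order all had negative differences, and none passed. Before P2rx7 these were Anapc7, a subunit of the anaphase-promoting complex (-0.26), Atp2a2, the calcium pump of the endoplasmic reticulum (-0.26), and Ift81, a transport protein of cilia (-0.40). After it came P2rx4 (-0.23), Camkk2, a calcium-dependent kinase that acts on AMPK (-0.36, limma adjusted p = 0.0801), and Anapc5 of the same complex as Anapc7 (-0.12). Limma adjusted p of the other 5 were 0.118 to 0.446. Around all 7 P2X genes, 32 of 34 neighbouring genes outside the family were measured, with a median difference of -0.09. Over all tested probe sets the median was 0.02, and it was also -0.09 with dim ones left out. Of the 32 neighbours 1 passed, beside 5.79% of all probe sets in either direction. That one, Prg2, a granule protein of eosinophils near P2rx3, was dim, at 3.79, 3.94 and 3.83 in WT and 4.10, 4.69 and 4.47 in KO (difference 0.57, limma adjusted p = 0.0492). Prg3, which lies between Prg2 and P2rx3, differed by 0.01 (limma adjusted p = 0.944).

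**Figure D3:**
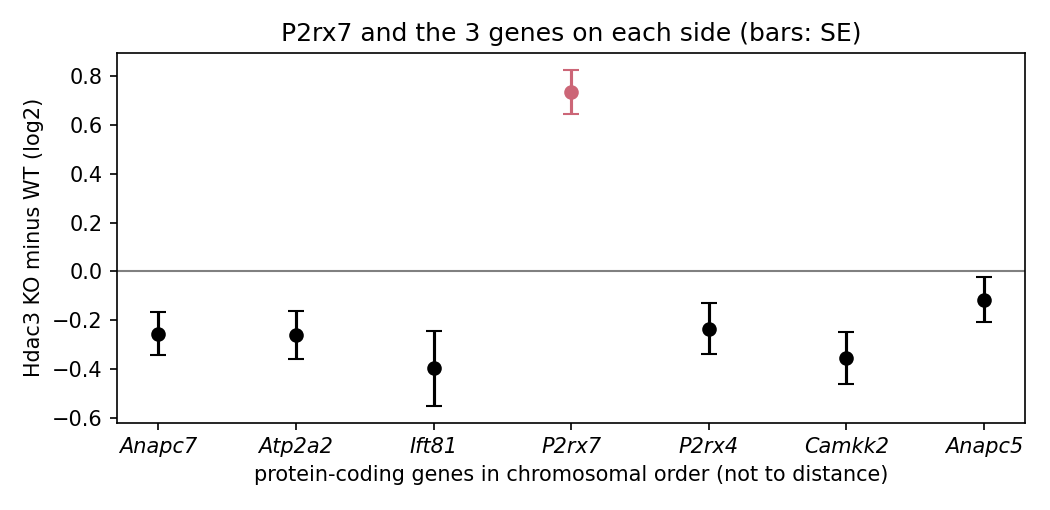
Difference between KO and WT (y axis, log2, bars SE) of P2rx7 and the 3 protein-coding genes on each side, in chromosomal order and not to distance. P2rx7 is at 0.74 and its neighbours lie between -0.40 and -0.12.

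The 5 genes whose values over the 6 arrays were most like those of P2rx7, after removing each gene's mean, were Coro7, Hsd11b1, F630111L10Rik, Gpr55 and Map3k19. Their root-mean-square distances to P2rx7 were 0.05 to 0.08 on the log2 scale. Coro7, a coronin of the Golgi, read 9.11, 9.02 and 9.14 in WT and 9.90, 9.81 and 9.97 in KO (difference 0.80, limma adjusted p = 0.00206). Like P2rx7 it was lowest on array 2 of each genotype, as were Hsd11b1, F630111L10Rik and Map3k19. The choice by likeness over the arrays favours such a shared order. Gpr55, a receptor for lysophosphatidylinositol, differed by 0.82 and Hsd11b1, which converts inactive into active glucocorticoid, by 0.67. F630111L10Rik and the kinase gene Map3k19 differed by 0.66 and 0.64. Being chosen for likeness to a gene that rose, these genes had to differ as well.

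The other purinergic genes were read from 7 lists with 76 genes, of which 65 were measured. Of these, 2 passed upward, 3 passed downward and 60 did not pass, and their median difference was 0.00, beside 0.02 over all genes. Over all probe sets 1.75% passed with KO higher, 4.04% with KO lower and 5.79% in either direction. These shares are the background for the count of each list below. With 1 array left out, the number that passed ranged from 2 without KO array 2, and also without KO array 3, to 11 without WT array 3. It was 3 without WT array 1 and without WT array 2. With all arrays it reached 11 after median centring and 14 with array quality weights.

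Among 8 P2Y receptors, the G protein-coupled receptors for nucleotides, none passed (6 of 8 had a positive difference). P2ry10, a lymphocyte receptor for lysophospholipids that shares the family name, read 8.99, 8.65 and 8.40 in WT and 8.33, 7.89 and 7.82 in KO. All KO arrays lay below all WT arrays, and the difference was -0.66 (SE 0.17, limma adjusted p = 0.0535). P2ry14, the receptor for UDP-glucose, had a difference of -0.31 (limma adjusted p = 0.144). The 4 adenosine receptor genes were not analysed here.

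Of 8 genes for the release of ATP, none passed. Panx1, the pannexin channel through which T cells release ATP, read 7.93, 7.87 and 7.93 in WT and 7.82, 7.88 and 7.73 in KO, with overlapping groups (difference -0.10, 95% interval -0.30 to 0.10). Lrrc8a, a subunit of volume-regulated anion channels, had a difference of -0.28 (limma adjusted p = 0.0962) and Vdac1, an outer membrane channel of mitochondria, one of -0.25 (limma adjusted p = 0.191). Panx1 was named after its values were seen, for its known role beside P2X receptors.

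Of 14 measured genes that break down extracellular nucleotides or handle adenosine, Ada rose and 13 did not pass. Ada, adenosine deaminase, which clears adenosine and is needed for thymocyte survival, read 9.27, 9.14 and 9.07 in WT and 9.75, 9.56 and 9.58 in KO. The groups did not overlap, and the difference was 0.47 (SE 0.10, limma adjusted p = 0.0284). Its call was lost without WT array 2 or any 1 of the KO arrays (difference 0.41 to 0.50, limma adjusted p up to 0.0925) and after median centring (0.37, limma adjusted p = 0.077).

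A pair of adenosine genes missed the threshold narrowly and is named after its values were seen. Adk, adenosine kinase, read 6.62, 6.78 and 6.22 in WT and 6.20, 5.59 and 5.63 in KO (difference -0.73, SE 0.19, limma adjusted p = 0.0503). Slc29a1, the equilibrative nucleoside transporter, read 8.795, 8.994 and 8.997 in WT and 8.510, 8.640 and 8.430 in KO (difference -0.40, SE 0.10, limma adjusted p = 0.0501). In both, all KO arrays lay below all WT arrays. Entpd1 and Nt5e, which encode the surface enzymes CD39 and CD73 that turn ATP into adenosine, had dim signals with overlapping groups and differences of 0.05 and 0.34 (limma adjusted p = 0.890 and 0.213).

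Of 5 measured genes of surface NAD and ADP-ribosylation, none passed. Bst1, an NAD-consuming surface enzyme related to CD38, had a difference of -0.44 (limma adjusted p = 0.0624), and Art5, an ADP-ribosyltransferase gene, one of 0.17 (limma adjusted p = 0.284). Art2b, whose enzyme modifies P2X7 on mouse T cells, and Cd38 were not analysed here.

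Of 14 genes that act downstream of P2X7, Il18 rose, Ano6 and Pla2g4a fell, and 11 did not pass. Of all probe sets, 1.75% passed upward and 4.04% downward. Ano6 encodes the ion channel and scramblase linked to phosphatidylserine exposure after P2X7 opening. It read 10.98, 10.83 and 10.87 in WT and 10.16, 10.02 and 10.20 in KO, with no overlap, and fell by 0.76 (SE 0.09, limma adjusted p = 0.00286). Its fall passed in every one of the 16 alternatives. Pla2g4a, cytosolic phospholipase A2, was dim, at 4.97, 5.14 and 5.04 in WT and 4.70, 4.31 and 4.60 in KO (difference -0.51, SE 0.12, limma adjusted p = 0.0369). It no longer passed without any single WT array, nor without KO array 2 or KO array 3 (-0.55 to -0.40, with limma adjusted p as high as 0.119).

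Il18, the inflammasome-processed cytokine, was among the dimmest, at 3.39, 3.98 and 3.90 in WT and 4.42, 4.51 and 4.37 in KO. The difference was 0.68 (SE 0.15, limma adjusted p = 0.0323), with no overlap. It did not pass after quantile normalization (0.60, limma adjusted p = 0.0563) or without WT array 1 or any 1 of the KO arrays (0.49 to 0.71, limma adjusted p up to 0.109). Genes of the inflammasome itself did not pass: Nlrp3 differed by 0.10, Casp1 by 0.06 and Pycard by 0.08. Of these, Nlrp3 and Casp1 were dim (mean signals 4.34 and 3.33), while Pycard was bright (8.10). Of the sheddases, Adam10 had a difference of -0.22 and Adam17 of -0.07, neither of which passed.

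Of 16 measured genes of calcium entry and clearance, Atp2b1 fell and 15 did not pass. Atp2b1 encodes a plasma membrane pump that exports calcium. It read 8.933, 8.886 and 8.726 in WT and 8.003, 7.975 and 7.968 in KO. The groups lay far apart, with a fall of 0.87 (SE 0.09, limma adjusted p = 0.00163) that passed in all 16 alternatives. Median differences were 0.04 for the P2Y list, 0.00 for ATP release, 0.07 for nucleotide and adenosine handling, 0.05 for the NAD list, 0.07 for the downstream list and -0.09 for the calcium list.

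**Figure D4:**
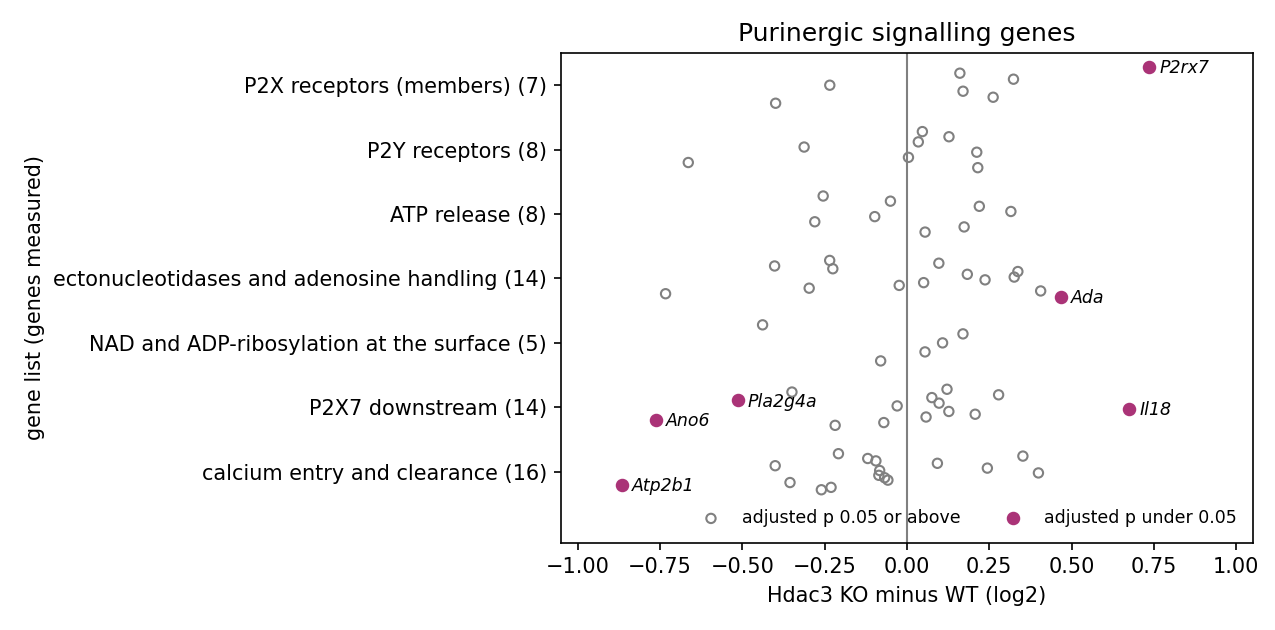
Difference between KO and WT (x axis, log2) for every measured gene of the P2X family and 6 further purinergic lists (y axis, number of genes measured in brackets). Filled points passed at an adjusted p under 0.05: P2rx7, Ada and Il18 to the right, Atp2b1, Ano6 and Pla2g4a to the left.

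Hdac3 itself read 9.40, 9.42 and 9.44 in WT and 8.28, 8.32 and 8.32 in KO (difference -1.12, SE 0.08, limma adjusted p = 3.5e-04), so the labels held on every array, although probes may lie outside the deleted part. Markers of the DP stage were bright, with means over 9 genes of 11.09 to 11.30 in WT and 11.08 to 11.20 in KO. Of the 9, Cd1d1 fell by 0.65 (limma adjusted p = 0.0204), Themis rose by 0.43 (limma adjusted p = 0.0470) and 7 did not pass. Signal was spread less widely in KO, with interquartile ranges of 3.06 to 3.25 against 3.29 to 3.49 in WT. Of the 1355 probe sets that passed, 30.2% were higher in KO, and 9.6% after median centring (197 higher, 1863 lower).

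Cells other than DP thymocytes also express P2X receptors, and in bulk RNA more cells of such a type and more RNA per cell cannot be told apart. Macrophages carry much P2X7. Of 12 macrophage markers 1, the integrin gene Itgam, passed, with a difference of 2.07 (limma adjusted p = 3.2e-04). The mean of the list, which includes this large difference, was 5.00 to 5.17 in WT and 5.33 to 5.60 in KO. The median difference of the 12 was 0.22. Lyz2 differed by 0.85, but only KO array 2 stood out. It read 4.632, 4.085 and 4.65 in WT and 4.538, 6.654 and 4.713 in KO. C1qa differed by 0.39, Fcgr1 by 0.35, Mpeg1 and Cx3cr1 by 0.29, C1qb by 0.15 and Mertk by 0.08. Adgre1 and Csf1r had differences of -0.04 and 0.04, Cd68 one of -0.12 and C1qc one of -0.01. Apart from Itgam, none of these passed. Groups did not overlap, with KO higher, for 3 of the 12, beside 13.5% of all probe sets. These were Itgam, C1qa (limma adjusted p = 0.0677) and Cx3cr1 (limma adjusted p = 0.168), and none was lower without overlap. Neutrophil markers averaged 4.30 to 4.46 in WT, 4.50 on KO arrays 1 and 3 and 5.88 on KO array 2, with a median difference of 0.44 and none of 12 passing. The P2rx7 difference without KO array 2 was 0.78.

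Markers of innate-like T and NK cells, which also carry P2X7, averaged 5.06 to 5.14 in WT and 5.05 to 5.13 in KO. Of the 10, Nkg7 fell by 0.45 and none passed upward. Groups did not overlap, with KO higher, for 1, Zbtb16 (difference 0.40, limma adjusted p = 0.102), beside 13.5% of all probe sets. With KO lower this held for 2, Nkg7 and Il2rb (-0.43, limma adjusted p = 0.0677), beside 16.5%. For regulatory T cells the means were 5.77 to 5.83 in WT and 5.70 to 5.87 in KO, with 1 of 5, Tnfrsf18, lower. Of 6 measured markers of mature single-positive cells, Il7r and H2-Q2 fell, and the list averaged 6.58 to 6.93 in WT and 6.42 to 6.55 in KO. Of 6 double-negative markers Il2ra rose by 2.275 and Cd44 fell by 0.66. List means were 5.24 to 5.46 in WT and 5.57 to 5.76 in KO. These means include the large Il2ra difference, and the median difference of the 6 was 0.03. Dendritic cell markers, of which none of 7 passed, averaged 4.66 to 4.88 in WT and 4.95 to 5.01 in KO.

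Of 5 measured erythroid markers Klf1 rose, with list means of 4.87 to 5.23 in WT and 5.28 to 5.49 in KO, and of 6 thymic epithelial markers Epcam fell, with list means of 5.11 to 5.32 and 5.25 to 5.31. None of 4 platelet markers and none of 7 B cell markers passed. None of the neutrophil, dendritic and erythroid markers had a mean signal above the median of tested probe sets. The median difference was 0.02 over all tested probe sets and -0.09 with dim ones left out. Whether these marker means moved more than equally dim probe sets was not tested. The part of the macrophage, neutrophil, double-negative, dendritic and erythroid marker levels in the rise of P2rx7 was not tested.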

How the data were processed

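Per the labels' protocols, RNA was labelled with biotin for Affymetrix whole-transcript arrays. The values are log2 probe set signals as deposited by the authors. That they are log2 was read from their range, and the sources used here do not give how background was corrected, arrays normalized or probes summarised. Probe sets were named from the platform annotation, and those with several symbols were tested but not named. The 23410 probe sets with a gene were fitted with limma (version 3.58.1, R 4.3.3) with 1 mean per group, two-sided Benjamini-Hochberg adjusted p-values and a threshold of 0.05. The fit was tested on simulated data. An exact test of 3 against 3 arrays cannot go below 0.1, so none was run. The 7 genes and all gene lists were chosen with earlier results of these data known. Named were all P2X genes, Hdac3, up to 4 genes that passed in each list (or the 2 with the smallest p), neighbours that passed, and the 5 genes most like a P2X gene that passed. Neighbours that did not pass, markers, and Panx1, Adk, Slc29a1, Entpd1, Nt5e, Nlrp3, Casp1, Pycard, Adam10 and Adam17 lie outside this rule and were named after their values were seen. Alternatives covered normalization, centring, filtering, variance prior, array weights, a block for the replicate number, averaging the probe sets of a gene, and leaving out each array. Precision is limited by the number of arrays: the median SE of a difference was 0.11.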

Additional observations from a re-analysis of the deposited data

How the results depend on the processing

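P2rx7 passed, and was the 1 P2X gene to pass, in all 16 alternatives. The differences of P2rx1, P2rx2, P2rx4, P2rx5 and P2rx6 kept their sign and did not pass in any alternative run. P2rx3 changed sign to -0.0041 after quantile normalization without KO array 2, and to -0.0138 with the mean of its probe sets. Leaving out 1 array gave differences of -0.57 to -0.09 for P2rx1, 0.22 to 0.30 for P2rx2, 0.09 to 0.23 for P2rx3, -0.31 to -0.16 for P2rx4, 0.23 to 0.42 for P2rx5, 0.04 to 0.30 for P2rx6 and 0.71 to 0.78 for P2rx7. Of the other purinergic genes, 5 passed, against 11 after median centring, 8 without dim probe sets, 9 with an intensity trend and robust prior, 14 with array weights, 3 after quantile normalization without KO array 2, and 2 to 11 with 1 array left out. Over all probe sets 1355 passed, against 2060 after median centring, 2285 with array weights, 437 after quantile normalization without KO array 2, and 474 to 1946 with 1 array left out, of which the lowest was without KO array 2 and the highest without WT array 3. The cause of these shifts was not tested.

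Whether replicate numbers pair the samples is not known from the sample titles, and the main fit did not pair them. Deviations of same-numbered arrays correlated at 0.25, -0.07 and -0.03, which does not settle it. With the replicate block 1162 probe sets passed, the P2rx7 difference of 0.74 had a limma adjusted p of 0.0064, and 1 P2X gene and 6 other purinergic genes passed. Not every array correlated best with its own number, although array 1 of both genotypes did. Pla2g4a did not pass there (limma adjusted p = 0.0552). How far a dim signal such as that of P2rx2 stands above background is unknown.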

Other observations

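P2rx1 and P2rx5 lie in 1 stretch of chromosome 11, and the measured genes around them had small differences. Beside P2rx1, Atp2a3, a calcium pump of blood cells, read 10.56, 10.33 and 10.45 in WT and 10.20, 10.20 and 10.24 in KO (difference -0.23, limma adjusted p = 0.166). Itgae, the CD103 integrin chain, differed by -0.29 (limma adjusted p = 0.234) and the histone H3 kinase gene Haspin by -0.29 (limma adjusted p = 0.0979). None of them passed.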
